A study of Mus musculus with 26 samples.

Results

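The genes described here are 41 members of glucose metabolism: glucose uptake, glycolysis, lactate handling, entry of pyruvate into the mitochondrion, the pentose phosphate pathway, glycogen turnover and the oxygen-sensing pair Hif1a and Egln3. They were chosen by symbol, and all 41 were among the 23420 genes of the expression table. RNA was sequenced from 26 libraries of sorted mouse antigen-presenting cells in 10 groups, which were 5 cell types, each taken from mTORΔAPC mice (KO) and their WT littermates. Each genotype had 2 libraries of spleen CD8a dendritic cells (DCs) and 2 of spleen CD11b DCs. It had 3 libraries each of lung CD11b DCs, of alveolar macrophages and of lung inflammatory DCs. The first 4 cell types came from untreated (steady-state) mice. The inflammatory DCs came from mice given 25 µL of house dust mite extract at 1 mg/mL protein into the nose 3 times a week and taken on day 17 by the sample label, or day 18 by the protocol. The strain, the age, the sex, the promoter that deletes Mtor and the number of animals behind a library are not given in the sources used here.

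Glucose enters a cell through transporters of the Slc2a family, is trapped as glucose 6-phosphate by hexokinases, and is split by glycolysis into pyruvate, which becomes lactate or enters the mitochondrion through pyruvate dehydrogenase. Glucose 6-phosphate can instead enter the pentose phosphate pathway, which supplies NADPH and ribose, or be stored as glycogen. The kinase mTOR is known to raise glycolytic gene expression in many cells, in part through the transcription factor Hif1a, and activated dendritic cells and macrophages are known for high glycolytic rates.

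The targeted gene, Mtor, was lower in KO than in WT libraries in all 5 cell types, with no overlap between genotypes. Its normalized counts, which are read counts divided by a library size factor, in spleen CD8a DCs were 384 and 427 for WT against 40.0 and 68.5 for KO, and in spleen CD11b DCs 396 and 355 against 63.0 and 82.6. The values were 298, 316 and 169 in KO lung CD11b DCs against 364 to 476 in WT, 71.7 to 104 against 332 to 387 in alveolar macrophages, and 196 to 236 against 336 to 404 in inflammatory DCs. In inflammatory DCs the difference did not pass the test (limma adjusted p = 0.0668). The 26 libraries held 7.37 to 14.15 M reads and 12992 to 14407 detected genes. The 3 lung CD11b DC libraries with the fewest detected genes were WT replicate 3 and KO replicates 2 and 3, at 12992 to 13173. Y-linked genes summed to at most 2.3 in all 10 WT libraries of the 4 untreated cell types. They summed to 932 to 3295 in the spleen KO libraries of both cell types and to 659.5 to 2136 in KO alveolar macrophages, so genotype and sex cannot be told apart there. Xist, a transcript of female cells, was 12.0 to 3620 in KO and 4366 to 5608 in WT spleen CD8a DCs. It was 21.4 to 3092 against 4728 to 5058 in spleen CD11b DCs, and 572 to 2293 against 2353 to 2622 in alveolar macrophages. Every KO alveolar macrophage library thus held both Y-linked reads and Xist. In KO lung CD11b DCs only replicate 1 had Y-linked reads, at 1318, against 0.8 and 1.3 in the others, and all 6 inflammatory DC libraries had them, at 1420 to 2523.

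The label "dendritic cell" was checked against marker genes. Spleen CD8a DCs held Xcr1 at 6363 to 7809 and Cd8a at 6034 to 6713. The DC growth factor receptor Flt3 was between 4682 and 10180 in all 8 spleen libraries, and between 1844 and 3066 in WT lung CD11b DCs. In inflammatory DCs Flt3 was 20.1 to 170 and Zbtb46, a transcription factor of conventional DCs, was 26.4 to 111, against 31.9 to 56.6 and 21.0 to 55.6 in alveolar macrophages. Markers of alveolar macrophages were mixed in inflammatory DCs, with Chi3l3 at 414293 to 1135997 against 143757 to 277962 in alveolar macrophages, but Marco at 39.8 to 366 against 2444 to 3511 and Siglec5 at 357 to 1012 against 3408 to 7323. The monocyte and macrophage marker Mertk was 2822 to 3386 in inflammatory DCs, 4572 to 5314 in alveolar macrophages and 64.5 to 204 in WT lung CD11b DCs. In the same order, Fcgr1 was 840.5 to 1218, 317 to 473.5 and 144 to 378. Emr1 was 4288 to 5855, 3546 to 6444 and 3398 to 4745. Csf1r was 12694 to 16412, 3634 to 4209 and 11266 to 12185. The cells are called inflammatory DCs here because the labels do so.

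Upstream sequence is shown for 4 members on which the results below turn: Slc2a1, higher in 3 KO comparisons; Hk3 and Pfkp, each higher in more than one; and Fbp1, with a large fall in inflammatory DCs. Each run is the 250 bases before the RefSeq start (GRCm38.p6), 5′ to 3′ on the gene's strand. Capitals mark ACGTG or its reverse complement CACGT. This is a form of the core of the hypoxia response element bound by Hif1a, and is also part of the E-box CACGTG. Other forms of that core, such as GCGTG, were not marked or counted.
Slc2a1, chr4:119108495-119108744, plus strand: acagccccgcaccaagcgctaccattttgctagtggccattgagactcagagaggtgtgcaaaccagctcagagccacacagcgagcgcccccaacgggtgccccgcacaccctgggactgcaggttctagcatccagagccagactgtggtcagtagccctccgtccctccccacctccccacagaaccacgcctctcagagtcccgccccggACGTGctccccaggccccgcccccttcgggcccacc
Hk3, chr13:55021386-55021635, minus strand: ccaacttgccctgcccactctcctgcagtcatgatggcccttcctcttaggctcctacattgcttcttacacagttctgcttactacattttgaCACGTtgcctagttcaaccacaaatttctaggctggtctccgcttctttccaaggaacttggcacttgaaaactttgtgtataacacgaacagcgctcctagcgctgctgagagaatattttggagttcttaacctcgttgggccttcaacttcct
Pfkp, chr13:6648772-6649021, minus strand: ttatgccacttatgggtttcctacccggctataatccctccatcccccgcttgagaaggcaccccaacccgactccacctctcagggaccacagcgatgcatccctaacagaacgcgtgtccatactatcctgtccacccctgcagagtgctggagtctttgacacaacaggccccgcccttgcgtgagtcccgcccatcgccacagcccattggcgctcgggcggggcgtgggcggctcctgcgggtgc
Fbp1, chr13:62888283-62888532, minus strand: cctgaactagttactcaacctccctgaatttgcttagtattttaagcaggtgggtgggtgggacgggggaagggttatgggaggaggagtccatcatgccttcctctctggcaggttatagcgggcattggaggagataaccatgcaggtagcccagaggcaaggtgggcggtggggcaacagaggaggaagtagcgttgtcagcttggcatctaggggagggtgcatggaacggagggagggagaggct
The Slc2a1 and Hk3 windows held 1 match to ACGTG each, and the Pfkp and Fbp1 windows held 0. The Pfkp run does hold the form GCGTG, and the Slc2a1 run holds its reverse complement CACGC. CpG dinucleotides numbered 13 for Slc2a1, 16 for Pfkp, 6 for Hk3 and 5 for Fbp1, against a median of 6 over all windows. Windows were found for 39 of the members. Of their 53 windows, 19 held ACGTG on either strand (35.8%), against 16.6% of all 32851 RefSeq windows of this length. These 19 windows belonged to 16 genes: Aldoa, Egln3, Hif1a, Hk2, Hk3, Ldha, Pdhb, Pfkfb3, Pfkm, Pgam1, Pgk1, Pkm, Pygl, Slc16a1, Slc16a3 and Slc2a1. The overlapping E-box CACGTG stood in 5 member windows (9.4%) and in 6.0% of all windows. A match describes these letters and is not evidence of a bound site.

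In WT cells the 5 cell types used different members of the same enzyme families. Levels between genes are given per kilobase of exon (normalized count per kb, the mean of the 2 or 3 WT libraries). For glucose transport, Slc2a3, a high-affinity transporter, led in spleen CD11b DCs at 506 per kb, with Slc2a6 at 139 and Slc2a1 at 51.9. In lung CD11b DCs the lysosomal transporter Slc2a6 led at 376.5 per kb, above Slc2a3 at 207 and Slc2a1 at 174. In alveolar macrophages all 3 were low, at 67.9 per kb for Slc2a1, 38.7 for Slc2a6 and 4.3 for Slc2a3. Inflammatory DCs held Slc2a1 at 234 and Slc2a3 at 13.7 per kb.

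Among hexokinases, which commit glucose to metabolism, Hk3 was the leading one in WT inflammatory DCs (691 per kb), spleen CD8a DCs (338) and alveolar macrophages (139). Hk2 led in spleen CD11b DCs (143 per kb) and lung CD11b DCs (157), where Hk3 stood at 25.1 and 71.9. Among the phosphofructokinases, which catalyse the committed step of glycolysis, Pfkp was highest in every cell type except spleen CD11b DCs, where Pfkl stood at 159 per kb and Pfkp at 134. Pfkm stayed at 4.1 to 19.0 per kb in all 5 WT groups. Of the bifunctional enzymes that set fructose 2,6-bisphosphate, Pfkfb3 led in spleen CD8a DCs (261 per kb) and spleen CD11b DCs (276) and Pfkfb4 led in alveolar macrophages (833) and inflammatory DCs (653). Members with high levels in all 5 cell types included Gpi1 (959.8 to 1259.5 per kb), Aldoa (716 to 5104 per kb), Gapdh (1624 to 4094), Pkm (1484 to 3770), Ldha (2071 to 4709) and Taldo1 (2262 to 4770).

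**Figure D1:**
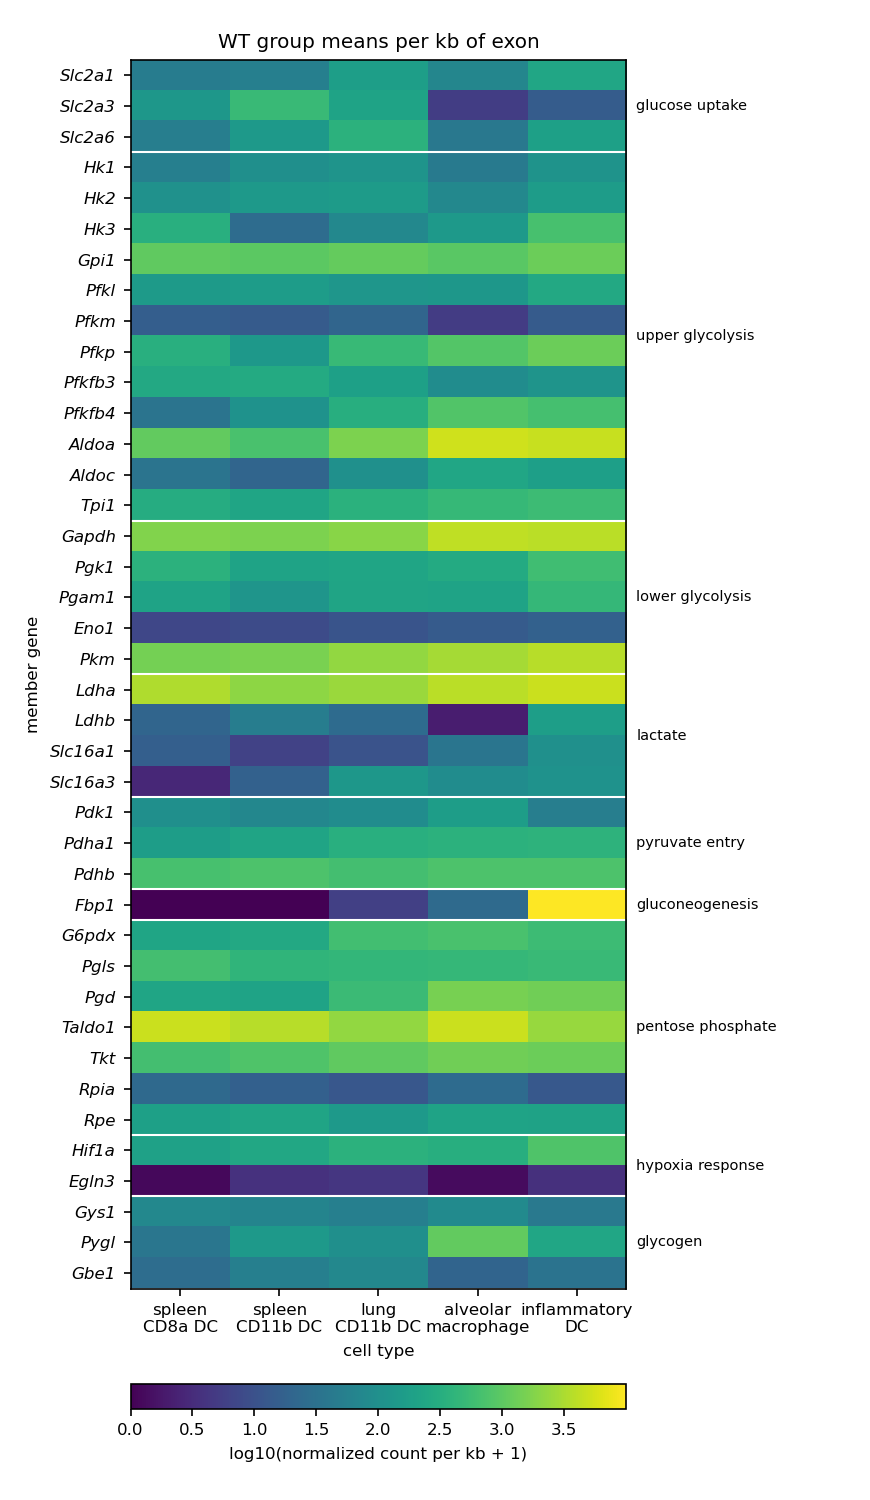
Mean WT level of 40 members in 5 cell types as log10(normalized count per kb of exon + 1), grouped by role. Fbp1 is at 0 in both spleen groups and at 9999 per kb in inflammatory DCs, while Aldoa, Gapdh, Pkm and Ldha are bright in every column.

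Spleen CD8a and CD11b DCs of WT mice differed in 19 of the 41 members, with 10 higher and 9 lower in CD8a DCs. Over all tested genes 23.0% were called between these groups. Hk3 was 1042 and 1226 in CD8a DCs and 76.3 and 92.3 in CD11b DCs, a log2 difference of 3.74 ± 0.19 (SE; limma adjusted p = 1.08e-12). The glycolytic enzymes Pfkp (log2 difference 1.34), Pgk1 (0.82), Pgam1 (0.76), Ldha (0.70) and Aldoa (0.62) were also higher in CD8a DCs. Lower in CD8a DCs were the lactate exporter Slc16a3, at 11.1 and 5.1 against 79.0 and 66.0, and the glycogen phosphorylase Pygl, at 83.1 and 162 against 308 and 676. Slc2a3 fell from 1916.5 and 2093 in CD11b DCs to 586 and 445 in CD8a DCs (log2 difference -1.97). Pfkfb4 (-1.68), Slc2a6 (-1.51) and the glycogen branching enzyme Gbe1 (-1.17) were lower too. Gbe1 lost its call without CD8a DC replicate 2 or CD11b DC replicate 1 (limma adjusted p = 0.400 and 0.187). WT CD8a DC libraries also held red pulp macrophage markers, at sums of 26444 to 45240 over 7 genes against 3262 to 4740 in CD11b DCs. Their part in these differences was not tested.

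Between WT lung and spleen CD11b DCs, more glucose genes were higher than lower in the lung. Of the 41 members 17 were higher and 4 lower in the lung, against 34.9% of all tested genes called in either direction. The members' median log2 difference was 0.41, against 0.01 over all genes. Slc2a1 was 541 to 589 in the lung and 167 and 171 in the spleen (log2 difference 1.74 ± 0.12, limma adjusted p = 1.15e-10). Both NADPH-producing pentose phosphate dehydrogenases were higher in the lung. G6pdx was 1603 to 1640 against 657 and 701, and Pgd was 1087 to 1260 against 447 and 472. Slc16a3 was 479 to 677 against 66.0 and 79.0. Aldoa (1.17) and Pfkfb4 (1.54) rose as well. Of the 7 pentose phosphate members 3 were higher and 2 lower in the lung. The lower ones were Taldo1, at 2824 to 3471 in the lung against 4288 and 5922, and Rpe, with a log2 difference of -0.58. Slc2a3 was lower in the lung (-1.34), but lost its call without spleen replicate 1 or 2 or lung replicate 3 (limma adjusted p = 0.0513, 0.0830 and 0.0552). Pdhb (-0.29) lost its call without spleen replicate 1 or 2 or lung replicate 3 (limma adjusted p = 0.211, 0.103 and 0.159).

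WT alveolar macrophages differed from WT lung CD11b DCs in 33 of the 41 members, with 21 higher and 12 lower, where 51.2% of all tested genes were called. Glycogen phosphorylase Pygl was 3513 to 3730 in macrophages against 246 to 373 in DCs (log2 difference 3.52 ± 0.30, limma adjusted p = 6.93e-10). Aldoa was 12907 to 13447 against 3925 to 4373. Pgd was 3265 to 3485 against 1087 to 1260, and Taldo1 was 6166 to 6688 against 2824 to 3471. Gapdh (1.08) and Pfkfb4 (1.41) were higher too. All 3 glucose transporters were lower in macrophages, Slc2a3 at 15.5 to 18.3 against 542.5 to 1018 (log2 difference -5.46 ± 0.36), Slc2a6 at 61.8 to 102 against 724 to 888, and Slc2a1 at 199 to 251.5 against 541 to 589. Hk2 (-1.11), Gbe1 (-1.94) and the heart-type lactate dehydrogenase Ldhb (-3.61, at 1.1 to 2.2 in macrophages) were lower as well.

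WT inflammatory DCs held higher levels than WT lung CD11b DCs for 21 members and lower levels for 4, where 47.5% of all tested genes were called. These groups differ in cell type, dust mite treatment and sex together, which cannot be told apart. The gluconeogenic enzyme Fbp1 was 8610 to 21849 in inflammatory DCs and 1.1 to 15.3 in lung CD11b DCs. Hk3 was 2063 to 2769 against 201.5 to 282 (log2 difference 3.26 ± 0.15, limma adjusted p = 2.90e-13). Aldoa (1.51), Pgd (1.37), Pgk1 (1.36) and Gapdh (0.99) were higher. Slc2a3 was 29.9 to 91.1 against 542.5 to 1018. Slc2a6 (-1.03), Pdk1 (-0.79), a kinase that switches pyruvate dehydrogenase off, and Gbe1 (-1.17) were lower.

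The number of members that passed the test for KO against WT followed the order of the shares over all tested genes. In spleen CD8a DCs 5 members passed the test, in spleen CD11b DCs 0, in lung CD11b DCs 20, among alveolar macrophages 12 and among inflammatory DCs 4. Over all tested genes the shares called were 5.13%, 1.52%, 26.1%, 16.9% and 3.37% in the same order of cell types. WT and KO libraries did not overlap for 22, 19, 18, 26 and 18 members, in that order, so a lack of overlap was common. It was not counted over all genes, and where it is given below it only describes the libraries. Hk2 passed in none of the 5 cell types, with log2 differences of 0.06 to 0.14. Ldha, the main lactate dehydrogenase, also passed in none, with log2 differences of -0.18 to 0.24. Hif1a passed in lung CD11b DCs only. A p that misses the threshold does not show that these genes were equal.

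**Figure D2:**
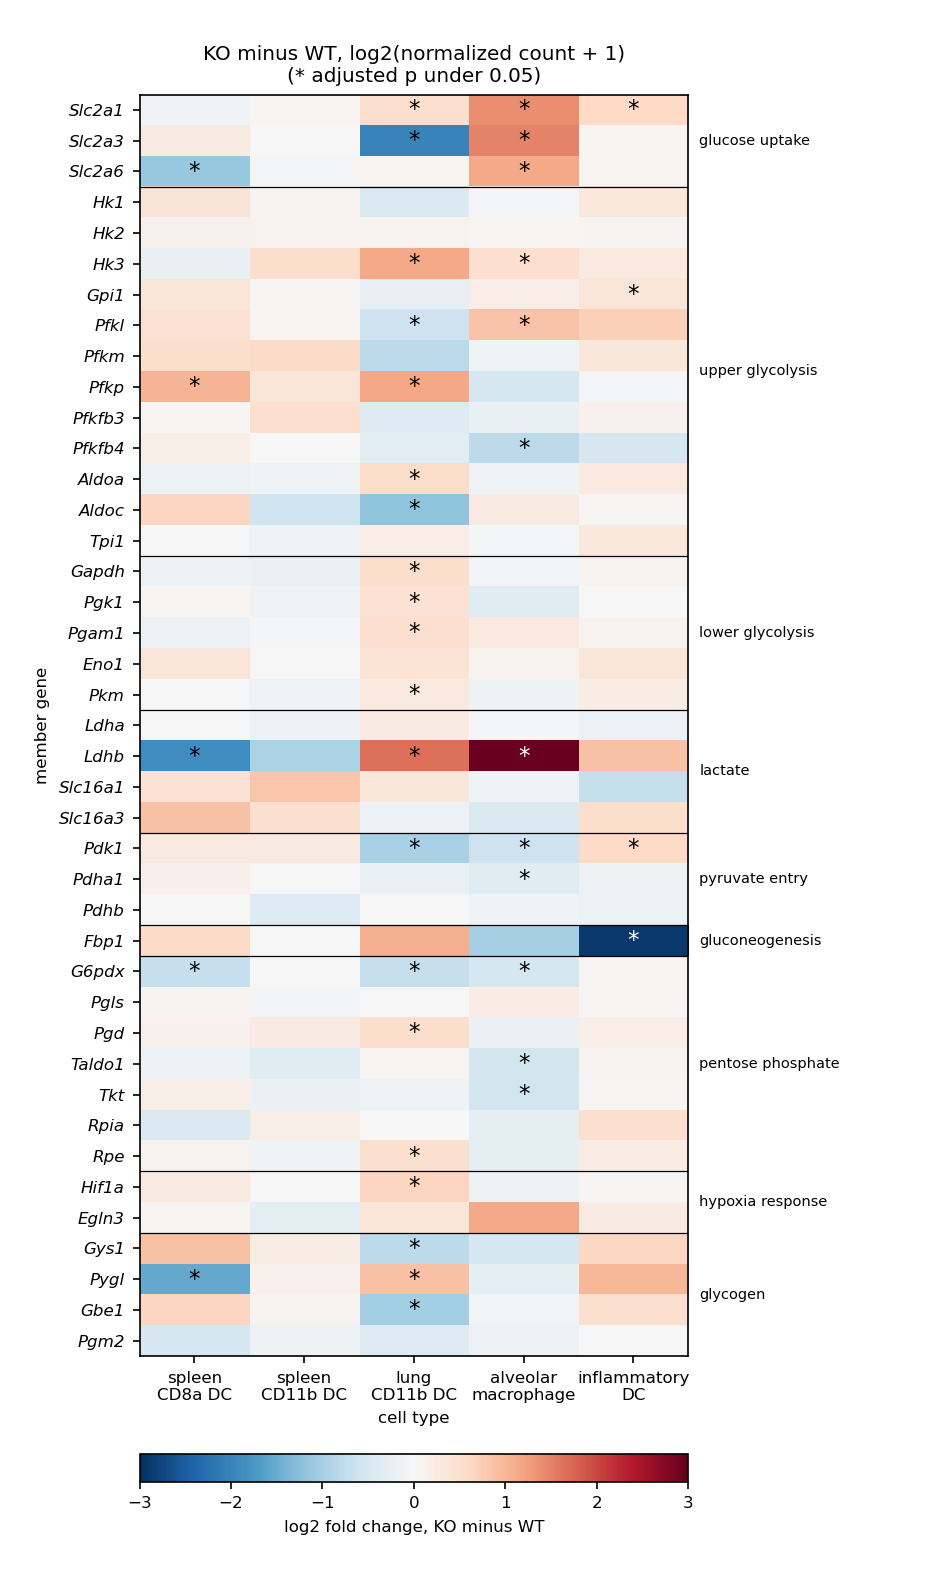
Log2 fold change, KO minus WT, of 41 members (rows, grouped by role) in 5 cell types (columns) on the log2(normalized count + 1) scale, with a star where the limma adjusted p was under 0.05. Stars number 5, 0, 20, 12 and 4 from left to right, and Slc2a1 carries 3 of them, all red.

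In spleen CD8a DCs, KO libraries held less G6pdx, the first enzyme of the pentose phosphate pathway, and more Pfkp. One member was higher and 4 were lower, where 5.13% of all tested genes were called. G6pdx was 596 and 594 in WT against 347 and 384 in KO (log2 fold change -0.70 ± 0.11, limma adjusted p = 8.10e-05), and the genotypes did not overlap. G6pdx lies on the X chromosome (74409483 to 74429194), and the KO libraries carried Y-linked reads while the WT libraries did not. Pfkp was 1568 and 1303 in WT against 3174 and 2643 in KO (1.02 ± 0.22, limma adjusted p = 0.00553).

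The other called members in spleen CD8a DCs fell. Slc2a6 was 139.6 and 76.0 in WT against 42.8 and 50.4 in KO (log2 fold change -1.13), Pygl 83.1 and 162 against 24.2 and 63.6 (-1.54), and Ldhb 28.3 and 22.3 against 10.2 and 3.6 (-1.86). Beside these falls, the summed red pulp macrophage markers were 26444 to 45240 in WT and 4735 to 5170 in KO, with 6 of 7 called lower, and 14 of 23 monocyte and macrophage markers were lower. Over all tested genes 5.13% were called. The macrophage gene Vcam1 was 7010 to 12464 in WT and 799.8 to 1058 in KO. The part of these markers in the result was not tested. In bulk libraries, fewer cells of a type and less RNA per cell cannot be told apart. Pfkp lost its call without WT replicate 2 or KO replicate 1 (limma adjusted p = 0.0747 and 0.105), Slc2a6 without WT replicate 1 or KO replicate 1 (limma adjusted p = 0.202 and 0.115), and Pygl without WT replicate 2 or KO replicate 1 (limma adjusted p = 0.186 and 0.340). Ldhb lost its call without WT replicate 1, WT replicate 2 or KO replicate 2 (limma adjusted p = 0.184, 0.0954 and 0.455), and also by edgeR (adjusted p = 0.105), by DESeq2 (adjusted p = 0.0577), with sample weights (limma adjusted p = 0.0689), with no filter (limma adjusted p = 0.0621) and with a pseudocount of 8 (limma adjusted p = 0.0991). G6pdx kept its call without any 1 library, but when only these 4 libraries were fitted 0 genes of the whole table were called, members included.

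In the same cells Hif1a was 894 and 1232 in WT against 1319 and 1224 in KO libraries, and Hk2 was 527 and 661 against 618 and 684.5. Slc2a1 was 149 and 154 against 140.5 and 139. Ldha was 6493 and 6196 against 6449 and 6287. None of the 4 passed. Of 97 further tested genes of glucose pathways (131 listed), 1 rose and 4 fell, where 5.13% of all tested genes were called. The glycogen primer protein Gyg rose (log2 fold change 0.47), while the monocarboxylate transporter Slc16a7 (-1.29), the enolase Eno2 (-2.64), the glucose 6-phosphate exchanger Slc37a2 (-1.46) and the lipid droplet protein Hilpda (-1.73) fell.

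In spleen CD11b DCs no member was called higher or lower by limma, where 1.52% of all tested genes were called. At an unadjusted p under 0.05 there were 4 of 41 members, where 12.5% of all tested genes were under that threshold, and both edgeR and DESeq2 called 0. Without WT replicate 1 the number called was 1. The 4 were Hk3 (84.3 in WT and 121 in KO, means of 2), Pdhb (1169.5 and 901), Pgd (460 and 548) and Taldo1 (5105 and 3938). Slc2a1 was 171 and 167 in WT against 174 and 179 in KO, and Hif1a was 1281 and 1425 against 1315.5 and 1390.1. Hk2 was 711 and 894 against 797 and 921, and Ldha was 3598 and 4250 against 3578 and 3376. G6pdx was 701 and 657 in WT against 674 and 704 in KO. Of the 97 further pathway genes 1 was called. The angiogenic factor Vegfa rose from a mean of 240.1 to 681 (log2 fold change 1.53, limma adjusted p = 0.0336).

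In lung CD11b DCs the deletion coincided with more lower-glycolysis enzymes and Hif1a, and with less G6pdx, Slc2a3 and Pdk1. Of the 41 members 13 rose and 7 fell, where 26.1% of all tested genes were called, and the members' median log2 fold change was 0.06 against -0.05 over all genes. Of the 5 lower-glycolysis enzymes 4 rose and 0 fell. Of the 4 glycogen enzymes 1 rose and 2 fell.

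For uptake and trapping of glucose in lung CD11b DCs, Slc2a1 was 589, 572 and 541 in WT against 719.9, 863.5 and 858 in KO (log2 fold change 0.52 ± 0.11, limma adjusted p = 0.00127). Slc2a3 moved the opposite way, at 900.3, 1018 and 542.5 in WT against 311, 239 and 100.5 in KO (-2.01 ± 0.36, limma adjusted p = 2.09e-04). Hk3 was 201.5, 240 and 282 in WT against 444, 519.6 and 648 in KO (1.15 ± 0.15, limma adjusted p = 7.33e-06). For all 3 genes every KO library lay on one side of every WT library. Hk2 was 784 to 946 in WT and 839 to 1044 in KO and did not pass.

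For glycolysis in lung CD11b DCs, Pfkp was 2508, 2266 and 1569 in WT against 6045, 3609 and 4631 in KO (log2 fold change 1.17 ± 0.18). Aldoa was 3925, 4146 and 4373 against 5260.2, 6187 and 6826 (0.55 ± 0.09), and Gapdh was 2818, 2932 and 2950 against 3977, 4563 and 4111 (0.54 ± 0.09). Pgam1, the phosphoglycerate mutase, was 381, 402 and 376 against 491, 605 and 564 (0.51). These 4 genes showed no overlap between genotypes. The brain-type aldolase Aldoc fell, at 399, 327 and 186 against 195, 87.0 and 114 (-1.21), as did Pfkl, at 484, 559 and 364 against 438, 164 and 371 (-0.63), both with overlap between genotypes. Many of these enzymes have processed pseudogenes, so their counts depend on how shared reads were assigned, which is not given in the sources used here.

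Hif1a itself was 2131, 2181 and 1699 in WT against 2978, 2826 and 3591 in KO lung CD11b DCs (log2 fold change 0.65 ± 0.17, limma adjusted p = 0.0059). Its call ended with sample weights (limma adjusted p = 0.0715), which left 14 members called in place of 20, and when only the 6 lung CD11b DC libraries were fitted (limma adjusted p = 0.0555). Members known as its targets moved in both directions. Pdk1 fell from 352, 486 and 499 to 243, 186 and 248 (-0.97 ± 0.16), while Slc2a1 and Pgam1 rose. Ldha was 4687, 4630.2 and 4943 in WT against 6159, 5808 and 4947 in KO and did not pass (limma adjusted p = 0.0852).

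In the pentose phosphate pathway of lung CD11b DCs the first 2 dehydrogenases moved apart. G6pdx was 1640.2, 1603 and 1622 in WT against 1123, 934 and 963 in KO (log2 fold change -0.69 ± 0.09, limma adjusted p = 2.50e-06). Pgd was 1087, 1260.4 and 1134 against 1607, 1539 and 1849.6 (0.52 ± 0.09, limma adjusted p = 8.67e-05), and the epimerase Rpe was 417, 382 and 363 against 546.5, 547.5 and 520.1 (0.48). KO replicates 2 and 3, whose Y-linked sums were within the WT range, were the lower ones for G6pdx. Both were also among the 3 lung CD11b DC libraries with the fewest detected genes. Without KO replicate 1 the Y-linked sums of the remaining lung CD11b DC libraries were at most 1.6. The calls of G6pdx, Pgd and Rpe held in that fit. The part of sex in these results was not tested. Pgd lies 0.59 Mb and Eno1 1.68 Mb from the end of Mtor on chromosome 4. Slc2a1 is on the same chromosome, 29.31 Mb from Mtor. Among glycogen enzymes, Gbe1 fell from 279 to 325 in WT to 132 to 170.5 in KO (-1.02), and the synthase Gys1 from 147 to 223 to 87.7 to 158 (-0.79), with overlap.

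A further 4 members rose in lung CD11b DCs and lie outside the naming rule; they were named after their values were seen. They were Ldhb (log2 fold change 1.64), Pygl (0.87), Pgk1 (0.44) and Pkm (0.30). When only the lung CD11b DC libraries were fitted, 7 of the 20 calls were kept. Among those that ended were Slc2a3, Pfkp, Pgam1, Rpe and Ldhb (limma adjusted p = 0.0644, 0.0521, 0.0624, 0.055 and 0.134). Pgam1 also lost its call with sample weights (limma adjusted p = 0.0506). Several of the weaker calls rested on single libraries. Pfkl lost its call without WT replicate 1 or 2 or KO replicate 2 (limma adjusted p = 0.105, 0.173 and 0.392), and Aldoc without WT replicate 1 or KO replicate 2 (limma adjusted p = 0.0665 and 0.0715). Gys1 lost it without WT replicate 2 or 3 or KO replicate 2 or 3 (limma adjusted p = 0.0887, 0.0685, 0.0810 and 0.103). Pygl lost it without WT replicate 2 or 3 or KO replicate 1 or 3 (limma adjusted p = 0.145, 0.0502, 0.0651 and 0.148). Pkm lost it without WT replicate 1 or 2 or KO replicate 1 or 3 (limma adjusted p = 0.0799, 0.0813, 0.0557 and 0.127), and Pgk1 without WT replicate 1 or 3 or KO replicate 1 (limma adjusted p = 0.0606, 0.151 and 0.124).

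The KO and WT lung CD11b DC libraries also differed in identity markers, where 26.1% of all tested genes were called. Summed markers of type 2 conventional DCs were 63425 to 70096 in WT and 24683 to 35225 in KO, and Flt3 was 1844 to 3066 against 216.5 to 1071. All 22 interferon-stimulated genes on the list rose, with sums of 8097 to 8290 against 50217 to 57884. Of 23 monocyte and macrophage markers 8 rose and 3 fell, with sums of 124940 to 143771 against 129916 to 181979. Summed alveolar macrophage markers were 9916 to 15759 in WT and 21917 to 34713 in KO, with 5 of 17 called higher and 7 lower. Among members that rose, WT alveolar macrophages held more Aldoa, Gapdh, Pgd, Pfkp and Pygl but less Slc2a1 and Ldhb than WT lung CD11b DCs. Of the other risen members, WT means were also higher in macrophages for Hk3 (466 against 241), Pkm (7601 against 5815), Rpe (570 against 387) and Pgk1 (502 against 415). They were lower for Pgam1 (365 against 386) and Hif1a (1728 against 2004). Among members that fell, WT alveolar macrophages held less Slc2a3 and Gbe1 but more G6pdx, Pdk1, Aldoc and Gys1. Pfkl means were 483 against 469. The part of these shifts in the glucose genes was not tested. Fitting the 3 least complex libraries with their own term kept 17 of the 20 calls and ended those of Gys1, Pygl and Pfkl.

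Of the 97 further pathway genes in lung CD11b DCs, 12 rose and 17 fell, where 26.1% of all tested genes were called. In hypoxia signalling 5 of 25 rose, led by Ndrg1 (log2 fold change 2.97), Cited2 (0.79) and Plin2 (0.93), and 5 fell, led by Kdm3a (-0.68), Ddit4 (-1.94) and Epas1 (-1.44). In glycogen metabolism Gyg (0.65), Ppp1r3b (1.18) and the lysosomal glucosidase Gaa (0.56) rose, and the phosphorylase Pygb (-0.72) and the phosphorylase kinase subunits Phka2 (-0.78) and Phkb (-0.53) fell. In glycolysis Pfkfb1 rose (1.86) and the fructokinase Khk (-1.02), Bpgm (-1.19) and Gpd1 (-2.73) fell. Of transport genes, Emb, a chaperone of lactate transporters, fell (-0.90), as did Slc2a9 (-2.27). In pyruvate entry the subunit Dld rose (0.41) and the kinase Pdk2 fell (-1.58). Slc37a2, from a mean of 286 to 607, and the sugar-sensing factor Mlx (0.42) rose.

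**Figure D3:**
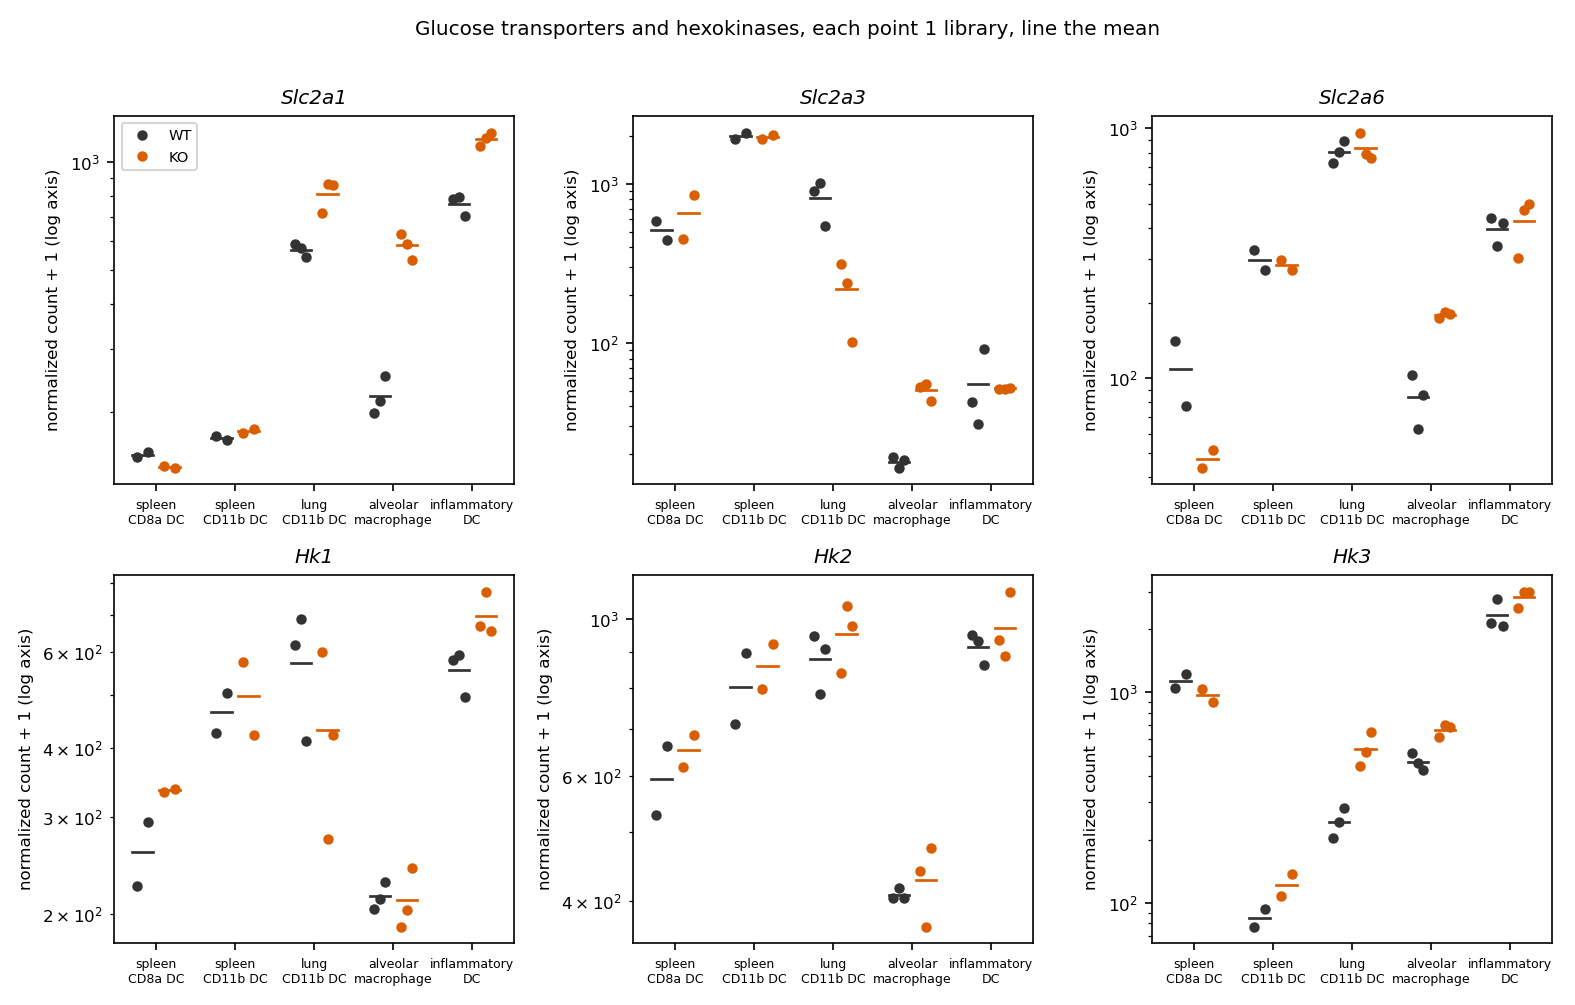
Normalized count + 1 (log axis) of 3 glucose transporters and 3 hexokinases in 26 libraries, WT in grey and KO in orange, with a line at each group mean. Slc2a1 is higher in KO in the 3 lung cell types, Slc2a3 falls in KO lung CD11b DCs and rises from near 17 in KO alveolar macrophages, and Hk2 overlaps between genotypes in all 5.

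In alveolar macrophages KO libraries held more of all 3 glucose transporters and less of G6pdx, Taldo1 and Tkt of the pentose phosphate pathway. The glycolytic enzymes from aldolase to pyruvate kinase that are among the members did not pass the test. Outside the members, the enolases Eno2 and Eno3 were called higher. Of the 41 members 6 rose and 6 fell, where 16.9% of all tested genes were called, and the members' median log2 fold change was -0.13 against 0.02 over all genes. Of the 7 pentose phosphate members 3 fell and 0 rose.

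Slc2a1 was 199, 214 and 251.5 in WT against 628, 589.6 and 532 in KO alveolar macrophages (log2 fold change 1.40 ± 0.11, limma adjusted p = 2.23e-09). WT lung CD11b DCs held 541 to 589. Slc2a6 was 102, 61.8 and 84.6 in WT against 173, 183 and 179 in KO (1.13 ± 0.21), and Slc2a3 was 18.3, 15.5 and 17.3 against 52.2, 54.7 and 42.0 (1.48 ± 0.36). The 3 transporters rose without overlap. Slc2a3 stayed low, beside 29.9 to 91.1 in inflammatory DCs and 100.5 to 1018 in lung CD11b DCs. Hk3 was 512, 460.3 and 425 against 611.5, 697 and 682 (0.51 ± 0.15), and Pfkl was 537, 428 and 485 against 859, 824 and 913.5 (0.85 ± 0.23).

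The 3 pentose phosphate members that fell in macrophages were G6pdx, Taldo1 and Tkt. G6pdx was 1971, 1875 and 1776 in WT against 1234, 1389 and 1284 in KO (log2 fold change -0.53 ± 0.09, limma adjusted p = 8.33e-05). Taldo1 was 6166, 6688 and 6539.9 against 4418, 4372 and 4522 (-0.54 ± 0.11), and Tkt was 4305, 4208 and 4429 against 2951, 2895 and 3050.2 (-0.54 ± 0.12). Taldo1 and Tkt encode the enzymes of the non-oxidative branch, which returns pentoses to glycolysis. No KO library reached a WT library for any of the 3. Pgd was 3265 to 3485 against 2855 to 3028 and did not pass (limma adjusted p = 0.136).

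Pfkfb4 and 2 members of pyruvate entry also fell in macrophages. Pfkfb4, which WT alveolar macrophages held at the highest level of any WT group, was 2887, 2882 and 2949 in WT against 1565, 1618 and 1853 in KO (log2 fold change -0.80 ± 0.14, limma adjusted p = 2.81e-04). Pdk1 was 906, 869.8 and 869.5 against 579, 566 and 587 (-0.61 ± 0.16), and the pyruvate dehydrogenase subunit Pdha1 was 1039, 1036.5 and 1096 against 834, 785 and 828 (-0.37 ± 0.09). Ldhb rose from 1.1, 2.2 and 1.1 to 22.1, 10.8 and 23.8 (2.96 ± 0.44), which is still a low level. Hif1a was 1762, 1661 and 1761 against 1551, 1556 and 1517, Hk2 was 402 to 416 against 366.5 to 474, and Ldha was 6997 to 7374 against 6836 to 7016. None of these 3 passed.

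G6pdx and Pdha1 are X-linked, and in alveolar macrophages the KO libraries carried Y-linked reads while the WT libraries did not. Over all tested genes 16.9% were called in these cells. Of 16 cell cycle genes 6 fell, with sums of 10767 to 11484 in WT and 6716 to 7828 in KO, and 20 of 22 interferon-stimulated genes rose. The T cell marker sum was 48.8 to 55.2 in WT and 149.5 to 254 in KO, with 6 of 10 called higher. The alveolar macrophage marker sum was 360791 to 371236 against 255611 to 277092. Chi3l3 made up most of that sum, at 267928 to 277962 in WT and 143757 to 161901 in KO. Other macrophage markers moved both ways. Car4 (5844 to 6627 against 13387 to 16109) and Marco (2444 to 2670 against 3242 to 3511) were higher in KO. Siglec5 and Krt79 were lower in KO. The part of these in the result was not tested. Pfkl lost its call without WT replicate 2 (limma adjusted p = 0.0534), and Hk3 without WT replicate 2 or 3 or KO replicate 2 or 3 (limma adjusted p = 0.0647, 0.104, 0.0850 and 0.0693). The other 10 kept theirs under every alternative run.

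Of the 97 further pathway genes in alveolar macrophages 11 rose and 5 fell, where 16.9% of all tested genes were called. In hypoxia signalling 5 of 25 rose and 0 fell. Vegfa (log2 fold change 1.84), Hilpda (1.41) and the Hif1a paralogue Epas1, from a mean of 102 to 473.5, led them. The lactate transporter chaperone Emb fell from a mean of 1153 to 193 (-2.59), and the glycerol 3-phosphate dehydrogenase Gpd1 from 309.9 to 38.4 (-2.99). The glycogen-to-lysosome receptor Stbd1 rose (2.46), as did Gaa (0.67), and Phka2 (-0.72) and Gsk3b (-0.40) fell. Slc37a2 (1.94), the enolases Eno2 (2.90) and Eno3 (0.78) and Myc (0.94) rose, and the kinase Pdk3 fell (-0.47).

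**Figure D4:**
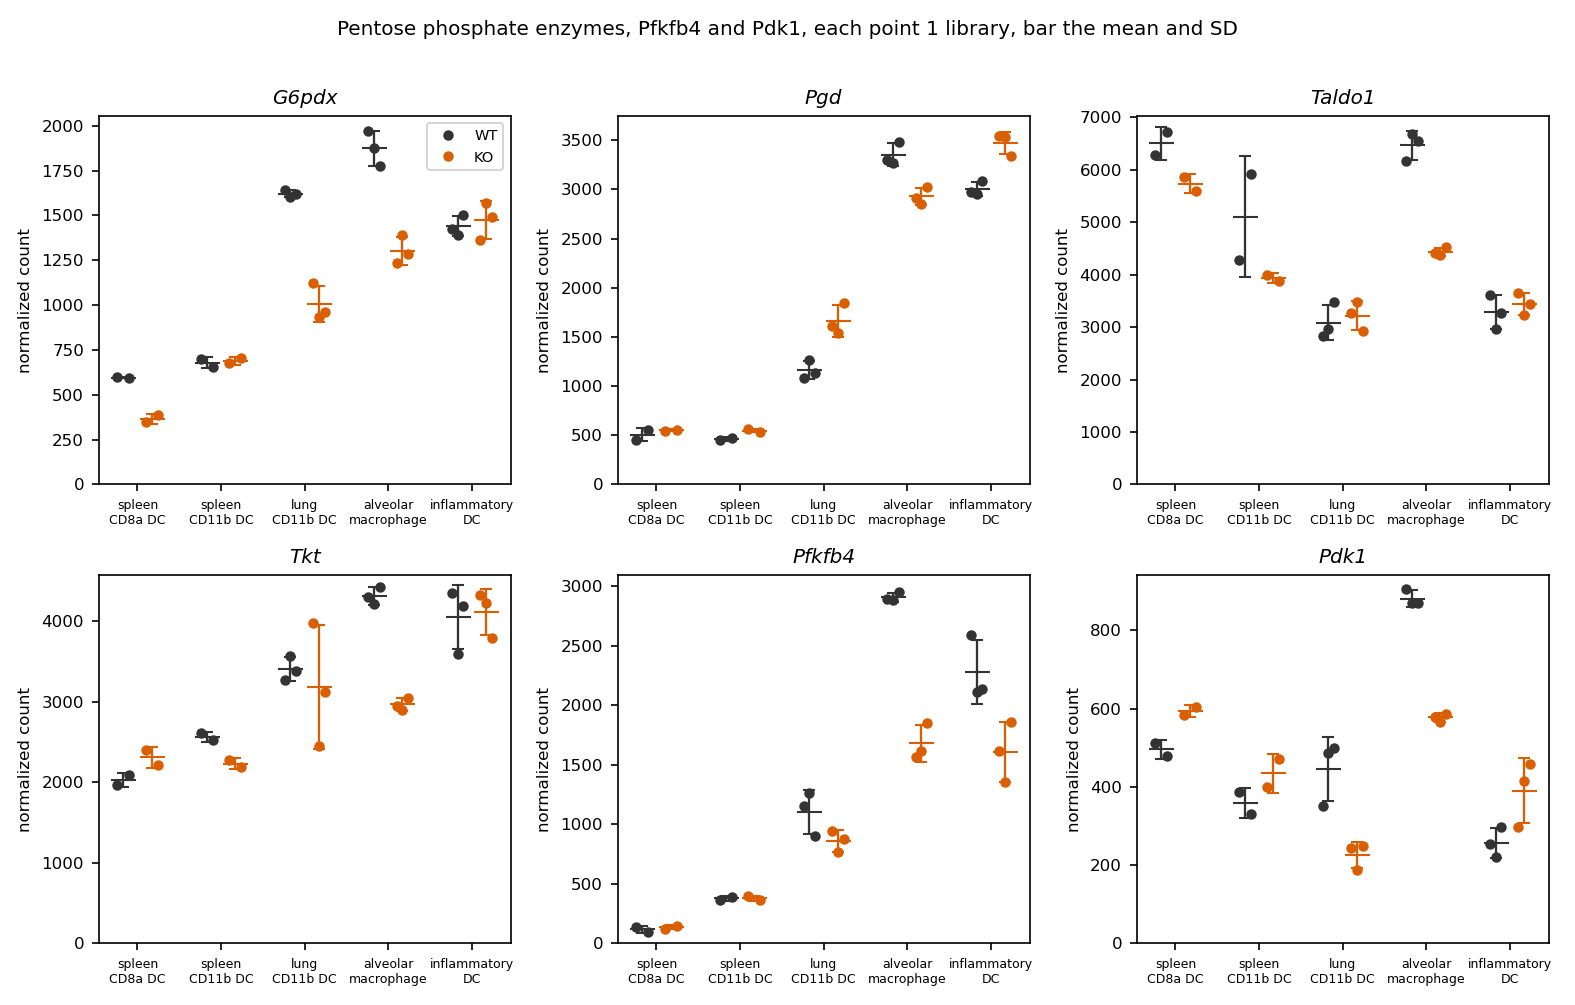
Normalized count of G6pdx, Pgd, Taldo1, Tkt, Pfkfb4 and Pdk1 in 26 libraries, WT in grey and KO in orange, with mean ± SD per group of 2 or 3. In alveolar macrophages the KO points of G6pdx, Taldo1, Tkt, Pfkfb4 and Pdk1 lie below all WT points, and in lung CD11b DCs G6pdx falls while Pgd rises.

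In inflammatory DCs, 3 members rose and 1 fell in KO, where 3.37% of all tested genes were called. Slc2a1 was 788, 798 and 704 in WT against 1105, 1163.5 and 1202 in KO (log2 fold change 0.60 ± 0.11, limma adjusted p = 0.00314), and kept its call without any 1 library. Gpi1, the isomerase after hexokinase, was 3706, 3549 and 3641 against 4614, 4782.5 and 4511.5 (0.35 ± 0.09, limma adjusted p = 0.0335), and Pdk1 was 254, 219.7 and 296 against 297, 415 and 458 (0.59 ± 0.16, limma adjusted p = 0.0407). The groups did not overlap for these 3 genes.

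Fbp1, which runs against glycolysis by removing a phosphate from fructose 1,6-bisphosphate, fell in inflammatory DCs from 21849, 8610.1 and 13906 in WT to 4293, 1595 and 913 in KO (log2 fold change -2.90 ± 0.66, limma adjusted p = 0.0139). All KO libraries were below all WT libraries, and the WT libraries spread over a wide range. Fbp1 was 0 to 1.2 in the 8 spleen libraries, 1.1 to 20.2 in lung CD11b DCs and 9.0 to 49.1 in alveolar macrophages. In the same inflammatory DC libraries the alveolar macrophage genes Car4 and Krt79 were 2937 to 12601 and 956 to 3605 in WT, and 1547 to 2809 and 84.9 to 241 in KO, and 5 of 17 tested alveolar macrophage markers fell while 1 rose. The summed alveolar macrophage markers were 906153 to 1247624 in WT and 488398 to 1125956 in KO. Of 8 general conventional DC markers 4 fell, where 3.37% of all tested genes were called. The part of these markers in the Fbp1 result was not tested.

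Fbp1 lost its call without WT replicate 1 or 3 or KO replicate 2 or 3 (limma adjusted p = 0.0899, 0.0504, 0.0620 and 0.0954), with the same direction. Pdk1 lost it without WT replicate 1 or 2 or KO replicate 2 or 3 (limma adjusted p = 0.120, 0.159, 0.168 and 0.226). Gpi1 lost it without any 1 of the 6 libraries (limma adjusted p = 0.0731 to 0.134). Hif1a was 3454, 6050.3 and 3645 in WT against 3606, 5255 and 4337 in KO, Hk2 was 860.5 to 948 against 886 to 1093, and Ldha was 7945 to 9695 against 6873 to 9217.5. None of the 3 passed. G6pdx was 1393 to 1499.9 in WT and 1362 to 1569 in KO. Pfkfb4, at 2591, 2108 and 2139 in WT and 1614.5, 1350.5 and 1857 in KO, was just short of the threshold (limma adjusted p = 0.0508).

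Of the 97 further pathway genes in inflammatory DCs 4 rose and 4 fell, where 3.37% of all tested genes were called. The mitophagy receptor Bnip3 (log2 fold change 0.95), the thioredoxin-binding protein Txnip (0.49), Gyg (0.38) and Pdk3 (0.46) rose. The enolase Eno3 (-1.30), the phosphoribosyl pyrophosphate synthetase Prps1 (-0.85), Epas1 (-1.64) and Vegfa (-1.10) fell.

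**Figure D5:**
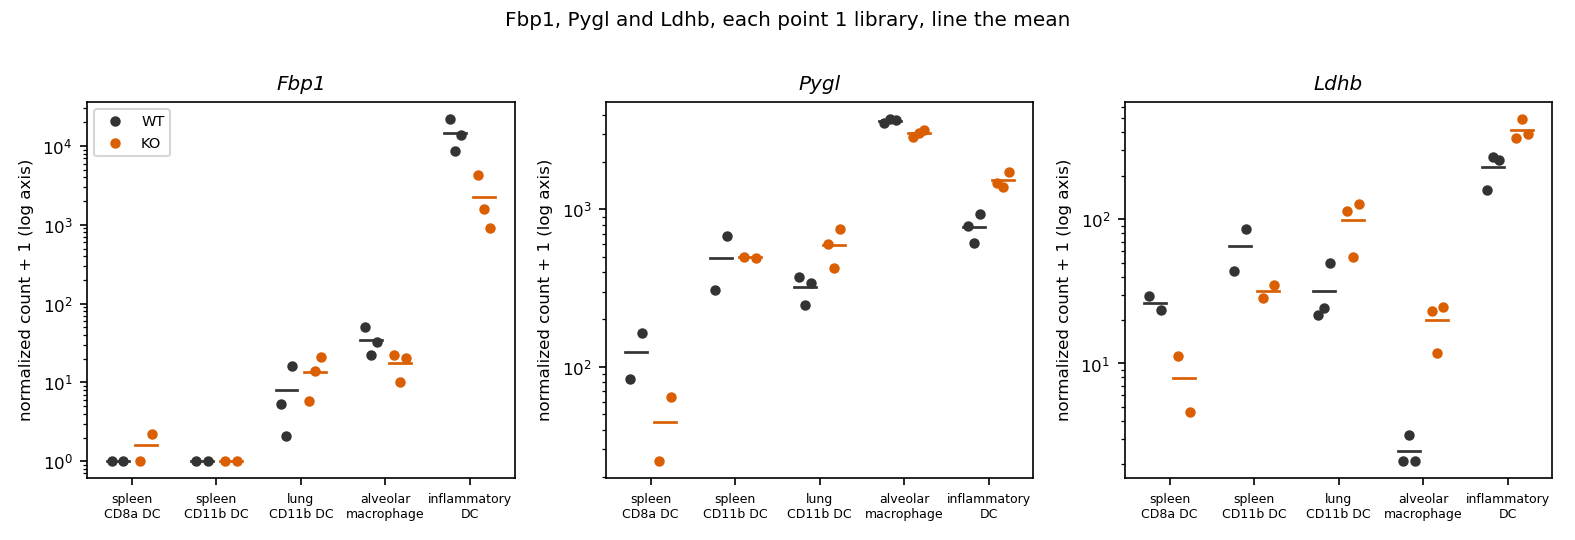
Normalized count + 1 (log axis) of Fbp1, Pygl and Ldhb in 26 libraries, WT in grey and KO in orange, with a line at each group mean. Fbp1 is above 900 only in inflammatory DCs, Pygl is highest in alveolar macrophages, and Ldhb is lowest in WT alveolar macrophages at 1.1 to 2.2.

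The difference between KO effects was tested directly for 4 pairs of cell types. Between spleen CD8a and spleen CD11b DCs 1 member differed, where 2.45% of all tested genes did. This was G6pdx, with a difference of log2 fold changes of -0.73 ± 0.15 (limma adjusted p = 0.00524). Between lung and spleen CD11b DCs 7 members differed, where 12.5% of all tested genes did. The 5 leading ones were G6pdx (-0.71 ± 0.14), Gapdh (0.75 ± 0.15), Pdk1 (-1.25 ± 0.25), Aldoa (0.66 ± 0.15) and Ldhb (2.60 ± 0.69). Ldhb lost its call without spleen WT replicate 2 or KO replicate 1 (limma adjusted p = 0.114 and 0.0667), and without lung KO replicate 1 the number of called members was 12.

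Between alveolar macrophages and lung CD11b DCs 16 members differed, with 6 KO effects more positive and 10 more negative in macrophages, where 16.8% of all tested genes differed. Slc2a3 led, with a fall in DCs and a rise in macrophages (difference 3.50 ± 0.51, limma adjusted p = 4.06e-05). Slc2a1 rose more in macrophages (0.88 ± 0.15). Pfkp (-1.67 ± 0.26), Pgd (-0.71 ± 0.12) and Rpe (-0.76 ± 0.15) had higher KO effects in lung CD11b DCs. Between inflammatory and lung CD11b DCs 11 members differed, where 13.0% of all tested genes did. Pdk1 fell in lung CD11b DCs and rose in inflammatory DCs (1.56 ± 0.23, limma adjusted p = 6.74e-05). G6pdx (0.73 ± 0.12), Pfkp (-1.20 ± 0.26), Gpi1 (0.60 ± 0.13) and Fbp1 (-4.00 ± 0.93) followed. The last 3 of these 4 pairs share the lung CD11b DC libraries, and the first 2 share the spleen CD11b DC libraries.

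Eno1, the enolase of most tissues, was low in these files, and a copy of it carried more reads in many libraries. Eno1 (chromosome 4, 150236721 to 150248879) was at only 13.7 to 59.7 normalized counts in all 26 libraries, and did not pass in any KO comparison. The symbol Gm5506, which RefSeq lists as a synonym of Eno1b and GENCODE M21 annotates as a retrogene copy, was 8.1 to 24.9 in the 10 WT libraries of untreated mice and 126 to 584 in their 10 KO libraries. In inflammatory DCs it was 673 to 821 in all 6 libraries of both genotypes. The log2 fold change of Gm5506 was 3.58 in spleen CD8a DCs, 3.71 in spleen CD11b DCs, 4.84 in lung CD11b DCs and 4.53 in alveolar macrophages, and 0.02 in inflammatory DCs. How reads shared by the 2 copies were assigned is not given in the sources used here, so the level of Eno1 is uncertain.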

How the data were processed

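RNA from sorted cells was sequenced in 26 libraries of 10 groups. The submitters' processing notes name STAR 2.3.1s, the mm10 build, HTSeq and DESeq2 1.10.1. Which annotation and strand setting were used is not given in the sources used here. Deposited were normalized counts, a signal in which the authors divided each read count by a library size factor. The smallest step of each library gave whole reads for 100% of its values within a tolerance of 1e-06, with size factors of 0.754 to 1.48 and 7.37 to 14.15 M reads per library.

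Values were analysed as log2(normalized count + 1). Genes at 10 or more in at least 2 libraries were kept, 13311 in all, and these included all 41 members. Some members passed through a few groups only, such as Fbp1 and Egln3. The main test was limma 3.58.1 in R 4.3.3, with 10 group means over 26 libraries, a mean-variance trend and Benjamini-Hochberg adjustment within each of 13 comparisons. A gene was called at an adjusted p under 0.05. A fold change on this scale understates the change of low genes. The count tests edgeR 4.0.16 and DESeq2 1.42.0 on the recovered reads were alternatives, as were other pseudocounts, no filter, sample weights, fits of the compared groups alone, and leaving out each library. A term for 3 lung libraries with fewer detected genes was added after seeing the data. The limma script was tested on simulated data.

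The members, the pathway lists and the marker lists were chosen with earlier results of these data known. In each KO comparison up to 8 called members per direction by smallest adjusted p are named, with Hif1a, Hk2, Slc2a1 and Ldha always. In WT comparisons up to 6 per direction are named, and in differences of KO effects up to 5. From each list of further pathway genes up to 3 per direction are named. Nothing in the labels says that replicates came from separate animals, so p-values measure the spread between these libraries. Replicates are numbered in accession order and pair nothing. Positions and exon lengths are from GENCODE M21, and upstream sequences from RefSeq, both on GRCm38. Pgm2 has no position or length here because its symbol was exchanged with another gene's between releases.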

Additional observations from a re-analysis of the deposited data

Results flagged for a closer look

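In all, 16 differences between cell types in the KO effect are singled out because the difference itself passed the limma test, up to 5 per pair of cell types. Each value is the log2 fold change in the first cell type minus that in the second. Between spleen CD8a and spleen CD11b DCs, the value was -0.73 for G6pdx. Between lung and spleen CD11b DCs, the values were -0.71 for G6pdx, 0.75 for Gapdh, -1.25 for Pdk1, 0.66 for Aldoa and 2.60 for Ldhb. Between alveolar macrophages and lung CD11b DCs, they were 3.50 for Slc2a3, -1.67 for Pfkp, -0.71 for Pgd, 0.88 for Slc2a1 and -0.76 for Rpe. Between inflammatory and lung CD11b DCs, they were 1.56 for Pdk1, 0.73 for G6pdx, -1.20 for Pfkp, 0.60 for Gpi1 and -4.00 for Fbp1.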

How the results depend on the processing

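Where a named member was called in the main fit or in an alternative, its direction was the same in both. Direction was not compared for members called in neither. Over the named members, called or not, 1456 repeated results kept their side of the threshold, 98 were no longer called and 2 became called. Over the counts of called members, 161 stayed within 1.5 times and 26 did not. When only the groups compared were fitted, which leaves few libraries to estimate the spread, the number of called members was 0 in place of 5 for KO against WT in spleen CD8a DCs, 7 in place of 20 in lung CD11b DCs and 0 in place of 4 in inflammatory DCs, but 21 in place of 12 in alveolar macrophages. It was 3 in place of 19 for WT spleen CD8a against CD11b DCs. For the differences of KO effects it was 0 in place of 1 for spleen CD8a minus CD11b DCs, 2 in place of 7 for lung minus spleen CD11b DCs, and 5 in place of 11 for inflammatory minus lung CD11b DCs. With sample weights it was 1 in spleen CD11b DCs, 21 for alveolar macrophages and 8 for inflammatory DCs, and DESeq2 gave 8 in inflammatory DCs. Leaving out each library in turn gave 2 to 5 in spleen CD8a DCs, 0 to 1 in spleen CD11b DCs, 16 to 22 in lung CD11b DCs, 10 to 13 for alveolar macrophages and 1 to 3 for inflammatory DCs. For the differences it gave 1 to 2 for spleen CD8a minus CD11b DCs and 4 to 12 for lung minus spleen CD11b DCs. The causes of these shifts were not tested. No paired analysis was possible because the replicate numbers follow accession order and pair no samples. With 2 libraries per group in the spleen, changes smaller than those called there may not be detectable.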
